A study of Mus musculus with 12 samples.

Results

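Cytokine feedback genes and direct Stat5 targets were followed as 10 genes in mouse mammary tissue: Cish and 6 members of the suppressor of cytokine signalling family (Socs1, Socs2, Socs3, Socs5, Socs6 and Socs7), and the Stat5 or cytokine responsive genes Bcl6, Pim1 and Id2. Every probe set that the platform annotation pairs with 1 of these symbols alone was taken, which gave 27 of the 45101 probe sets on the Affymetrix arrays and 10 of the 18193 genes they name. Values are log2 signals per probe set, so a difference of 1 is a 2-fold change. Of the 27, 25 had a mean over the 12 arrays at or above the filter level of log2 6.04 (the 30th percentile), and every gene kept at least 1 probe set. The unmeasured remainder, Socs2 1441476_at (4.67 to 5.90) and Socs7 1438492_at (4.40 to 5.51), lay under that level on every array.

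The study varied the number of intact Stat5a and Stat5b alleles and took mammary tissue 6 days after a mating plug, from 3 mice of each of 4 genotypes on a mixed C57BL/6, FVB and 129 background. Single-Stat5b mice (labelled Stat5abnull/Stat5a-) kept 1 Stat5b allele and no Stat5a, and single-Stat5a mice (labelled Stat5abnull/Stat5b-) kept 1 Stat5a allele and no Stat5b. By their labels, Stat5a-/- mice kept 2 Stat5b alleles, and Stat5ab+/null mice kept 1 allele of each gene. Every genotype as labelled thus lacks at least 2 of the 4 alleles. The submitters named the arrays ABB in the first of these genotypes and AAB in the second. Such names do not settle the allele numbers, which were taken from the labels. Wild-type mice are not part of the series as analysed here. Neither a mammary-specific promoter nor pooling of animals is named in the labels. The treatment text tells of PolyIC given to switch on an Mx1-Cre transgene and the descriptions tell of sorted cells. The design text gives tissue, and the labels leave unsettled if the 12 mice had received injections.

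Prolactin and growth hormone act through receptors that carry the kinase JAK2, which phosphorylates STAT5A and STAT5B. These dimerize, enter the nucleus and bind the palindrome TTCNNNGAA. CISH and the SOCS proteins are a feedback arm of this circuit: each has an SH2 domain that docks on phosphorylated proteins and a SOCS box that recruits a ubiquitin ligase, and several are switched on by the STATs they restrain. In the mammary gland of pregnancy, STAT5A is the isoform known for driving alveolar differentiation.

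Promoter windows of RefSeq starts (GRCm38.p6, 250 bases before to 50 after the start) were available for 6 of the 10 genes, Socs1, Socs3, Cish, Bcl6, Pim1 and Id2, in 8 windows. The 4 windows with the STAT palindrome TTCNNNGAA are shown because this is the sequence through which STAT5 could reach these genes directly; capitals mark the matches, and the palindrome reads the same on both strands. All are written 5′ to 3′ along the gene. The Cish window is chr9:107296409-107296708 on the plus strand, the Bcl6 windows of 2 annotated starts are chr16:23988803-23989102 and chr16:23981234-23981533 on the minus strand, and the Socs3 window is chr11:117969317-117969616 on the minus strand.
Cish: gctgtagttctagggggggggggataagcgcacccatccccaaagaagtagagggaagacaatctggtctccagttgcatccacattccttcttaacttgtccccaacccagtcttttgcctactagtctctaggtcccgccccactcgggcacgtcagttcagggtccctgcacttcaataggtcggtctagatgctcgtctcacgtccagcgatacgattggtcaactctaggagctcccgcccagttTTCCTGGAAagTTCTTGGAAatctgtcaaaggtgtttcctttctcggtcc
Bcl6 at 23988803: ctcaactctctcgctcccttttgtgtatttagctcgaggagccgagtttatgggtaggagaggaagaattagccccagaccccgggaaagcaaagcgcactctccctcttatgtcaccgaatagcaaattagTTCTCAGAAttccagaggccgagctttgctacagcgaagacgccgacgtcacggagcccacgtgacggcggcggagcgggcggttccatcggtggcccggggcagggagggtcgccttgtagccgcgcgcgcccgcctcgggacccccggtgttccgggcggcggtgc
Bcl6 at 23981234: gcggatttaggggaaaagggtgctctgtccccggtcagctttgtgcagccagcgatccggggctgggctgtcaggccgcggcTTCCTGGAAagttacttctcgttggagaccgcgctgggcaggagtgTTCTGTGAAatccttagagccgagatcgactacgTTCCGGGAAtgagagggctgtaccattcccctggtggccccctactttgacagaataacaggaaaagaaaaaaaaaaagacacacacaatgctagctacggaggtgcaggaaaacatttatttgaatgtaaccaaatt
Socs3: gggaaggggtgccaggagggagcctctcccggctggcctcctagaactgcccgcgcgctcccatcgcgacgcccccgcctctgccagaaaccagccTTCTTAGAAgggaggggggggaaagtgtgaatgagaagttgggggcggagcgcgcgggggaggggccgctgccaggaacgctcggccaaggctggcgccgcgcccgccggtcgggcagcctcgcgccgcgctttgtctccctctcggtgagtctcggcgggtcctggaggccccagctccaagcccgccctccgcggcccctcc

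Cish held 2 matches, TTCCTGGAA at bases 251 to 259 of the window and TTCTTGGAA at 262 to 270. The Bcl6 window at 23981234 held 3, TTCCTGGAA at 83 to 91, TTCTGTGAA at 129 to 137 and TTCCGGGAA at 163 to 171, and the other Bcl6 window held TTCTCAGAA at 133 to 141. In Socs3 the match was TTCTTAGAA at 97 to 105. None of these matches overlapped another. Among all 32851 windows of this length, 8.30% held at least 1 match, 0.457% at least 2 and 0.0335% at least 3. A match is a description of the letters and not a binding site.

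The 12 arrays form 2 sets that no genotype bridges, the 1-allele set (single-Stat5b and single-Stat5a) and the 2-allele set (Stat5a-/- and Stat5ab+/null). Both sets are named by the allele total of the labels. Pearson r across all probe sets was 0.818 to 0.883 between arrays of different sets and 0.949 to 0.994 within a set, and the actin control's 3' signal exceeded its 5' signal by 2.16 to 3.78 in 1-allele arrays and 0.133 to 0.267 in 2-allele arrays. Allele total and array set therefore cannot be told apart, and genotypes were compared within a set. The actin excess also varied inside the 1-allele set. It was 3.78 in single-Stat5b 1, 3.07 in single-Stat5a 3 and 2.16 to 2.42 on the other arrays. The same excess of the Gapdh control was 3.91, 2.80 and 1.11 to 1.48 in that order. No member was called with or without the actin excess in the fit. That fit therefore cannot show its part within the set, which was not tested. The mean of the 10 listed luminal epithelial markers was 10.4 to 11.2 in single-Stat5b and 10.2 to 10.8 in single-Stat5a. It was 11.4 to 11.8 in Stat5a-/- and 11.7 to 11.9 in Stat5ab+/null. Single genes departed from this mean. In 1-allele arrays Cldn4 read 4.80 to 6.86 and Elf3 5.58 to 6.78, reaching under the filter level. They read 10.7 to 11.1 and 7.87 to 9.27 in 2-allele arrays. Cdh1 went the other way, at 11.9 to 12.8 against 10.9 to 11.5. Spint1 leaned that way with overlap, at 10.4 to 11.2 against 9.94 to 10.6. No amount of luminal cells is therefore read from the mean across the sets. The mean of 6 measured B and plasma cell markers was 7.45 to 8.66, 6.86 to 8.17, 7.21 to 12.0 and 8.28 to 12.4 in the same order of genotypes, and that of 8 skeletal muscle markers 7.71 to 10.7, 9.65 to 13.4, 6.24 to 9.73 and 6.04 to 8.67. In such bulk tissue, fewer cells of a type and less RNA per cell cannot be told apart, and across the sets neither can be told from the array set. Of the targeted genes, the Stat5a probe set 1421469_a_at averaged 10.98 ± 0.11 (SD, n = 3) in single-Stat5b arrays, below the 12.21 ± 0.34 of single-Stat5a. That is the order of the labels, though single-Stat5b should carry no intact Stat5a. The other Stat5a probe set, 1450259_a_at, averaged 5.05 ± 0.08 in single-Stat5b and 5.29 ± 0.35 in single-Stat5a, under the filter level and overlapping (limma adjusted p = 0.814). Stat5b 1422102_a_at averaged 6.79 ± 0.16 and 6.15 ± 0.14 in the same order, without overlap (limma adjusted p = 0.0671). Stat5b 1422103_a_at averaged 9.63 ± 0.27 and 9.43 ± 0.25, with overlap (limma adjusted p = 0.787). Neither Stat5b probe set was called. The mean of 1421469_a_at, 10.30 ± 0.18 in Stat5a-/- arrays, which should carry no intact Stat5a, was not below the 9.91 ± 0.15 of Stat5ab+/null, and Stat5b 1422102_a_at, at 8.27 ± 0.09 in Stat5a-/- and 8.52 ± 0.18 in Stat5ab+/null, was not higher with its 2 alleles. The second probe sets of both genes did the same, with Stat5a 1450259_a_at at 8.94 ± 0.34 in Stat5a-/- and 8.37 ± 0.40 in Stat5ab+/null and Stat5b 1422103_a_at at 9.59 ± 0.07 and 9.90 ± 0.07 in the same order. The values in the 2-allele set are thus not in the order of the labels. Whether these probe sets read only transcripts of intact alleles was not tested. In 1-allele genotypes without the intact gene, 1421469_a_at averaged 10.98 (single-Stat5b) and 1422103_a_at 9.43 (single-Stat5a). The other probe sets of these genes, 1450259_a_at and 1422102_a_at, averaged 5.05 and 6.15 there. The genotype labels are therefore not judged from these signals. Wherever a direction is given, the wording keeps to the label for Stat5a-/-.

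The question in both comparisons is whether the feedback genes follow the kind of Stat5 allele that is left when the labelled total is equal. In neither did any of the 25 probe sets pass limma's test over all 31526 probe sets. For single-Stat5b against single-Stat5a, 0 of 25 were called where 2.89% of all probe sets were (1.08% higher and 1.81% lower), and 1 of 25 had an unadjusted p under 0.05 where 11.8% of all did. For the arrays labelled Stat5a-/- against Stat5ab+/null, 0 of 25 were called against 0.00952% of all (0.00634% higher and 0.00317% lower), and 0 of 25 against 2.84% had an unadjusted p under 0.05. The median log2 difference of the 25 was -0.14 in the 1-allele set, beside -0.00 over all probe sets, and 0.05 in the 2-allele set, beside -0.05. Groups did not overlap for 1 of 25 in the 1-allele set, where 11.5% of all probe sets did not (5.29% higher and 6.16% lower), and for 1 of 25 in the 2-allele set, where 17.5% did not (6.17% higher and 11.3% lower).

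**Figure D1:**
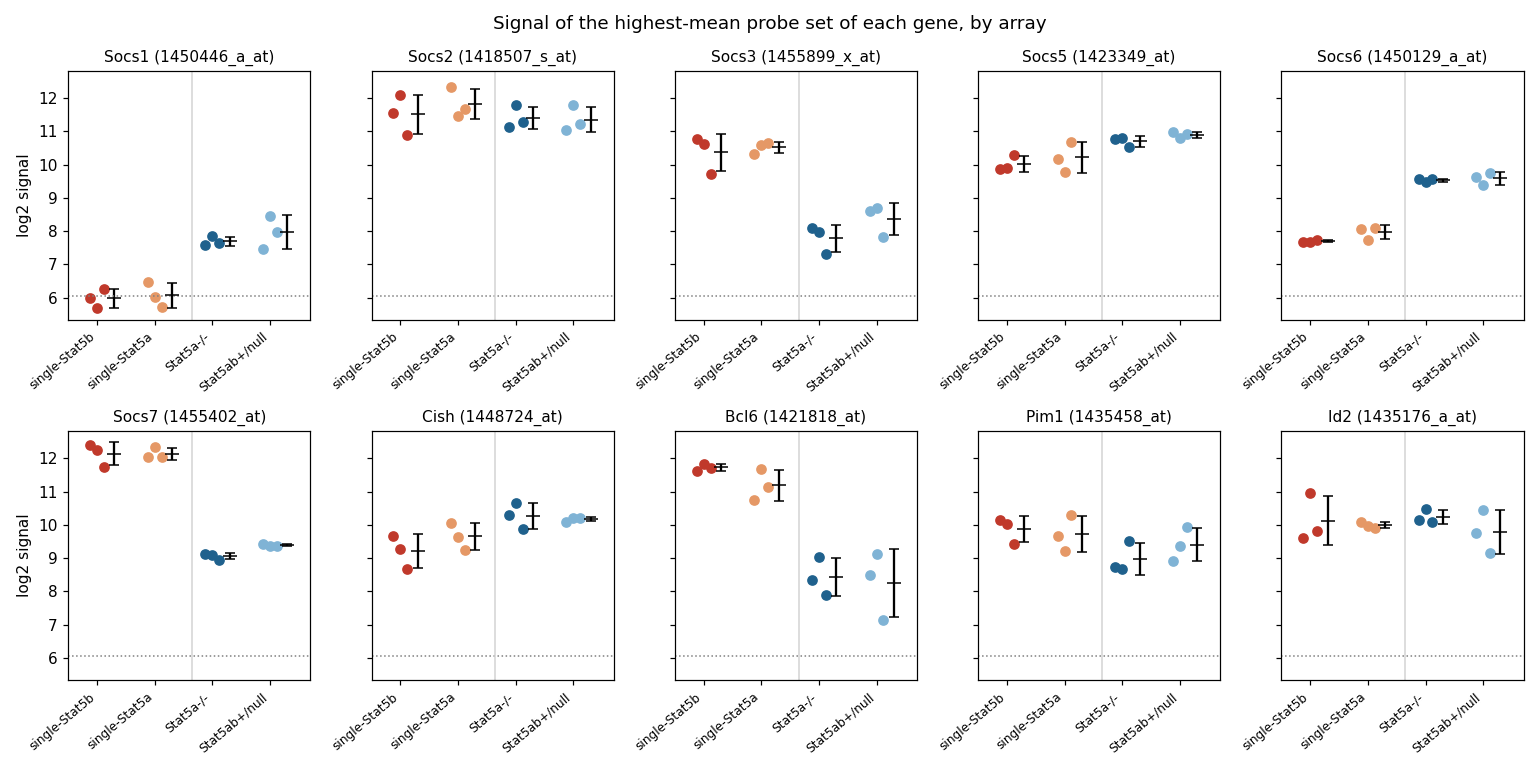
Log2 signal of the probe set with the highest mean for each of the 10 genes. Points are single arrays, black bars the mean and SD of 3 arrays, the dotted line is the filter level of 6.04 and the grey vertical line parts the 1-allele set (left) from the 2-allele set (right); genotypes within a set overlap except in Socs6, where single-Stat5b lies below single-Stat5a, and Socs7, where the arrays labelled Stat5a-/- lie below Stat5ab+/null.

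Cish, which competes with STAT5 for phosphorylated receptor sites and is the classical STAT5 feedback gene, was read by 1 probe set. It read 9.67, 9.28 and 8.68 in the single-Stat5b arrays, against 10.06, 9.64 and 9.25 in the single-Stat5a arrays. These groups overlapped, with the 2 highest values of single-Stat5b inside the range of single-Stat5a. The log2 difference was -0.44 (95% interval -1.05 to 0.17, limma adjusted p = 0.635). In the 2-allele set Cish stood at 10.28, 10.64 and 9.86 in the arrays labelled Stat5a-/- and at 10.10, 10.22 and 10.21 in Stat5ab+/null. The Stat5ab+/null values sat close together inside the wider range of the other group, and the difference was 0.09 (-0.52 to 0.70, limma adjusted p = 1.00).

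Socs2, a brake on growth hormone signalling whose loss makes mice overgrow, was read by 5 measured probe sets. All 5 were below 0 in single-Stat5b against single-Stat5a, from -0.63 to -0.17, and none was called. The difference of -0.63 belonged to 1438470_at (95% interval -1.13 to -0.12, unadjusted p = 0.0193, limma adjusted p = 0.261), the 1 probe set of the 25 whose interval left out 0. Its levels were 7.63, 6.85 and 6.94 in single-Stat5b and 8.13, 7.51 and 7.65 in single-Stat5a. Only the highest single-Stat5b array reached into the range of single-Stat5a. For 1449109_at the levels were 9.93, 9.72 and 9.69 in single-Stat5b and 10.93, 9.80 and 10.14 in single-Stat5a, a difference of -0.51 (-1.15 to 0.13). The probe set with the highest signal, 1418507_s_at, read 11.56, 12.08 and 10.89 in the single-Stat5b arrays, against 12.32, 11.46 and 11.66 in the single-Stat5a arrays (difference -0.31, -1.01 to 0.40), with single-Stat5b arrays both above and below the middle of the other group.

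In the 2-allele set, 4 of the 5 Socs2 probe sets were above 0 and 1 below, from -0.20 to 0.31. The levels of 1449109_at were 11.47, 12.30 and 11.76 in the arrays labelled Stat5a-/- and 11.26, 11.95 and 11.40 in Stat5ab+/null, and the difference was 0.31 (95% interval -0.34 to 0.95). Array 2 of each genotype was the highest of its group for this probe set and for 1418507_s_at, where arrays 2 read 11.79 each and the other 4 arrays 11.05 to 11.27. The numbers follow the order of the records and pair no mice. Whether the isoform difference itself changed between the sets was tested as an interaction. It was -0.81 for 1449109_at (SE 0.42, limma adjusted p = 0.774) and -0.73 for 1438470_at (SE 0.33, limma adjusted p = 0.647, the lowest of the 25). In that test 0 of 25 were called where 1.09% of all probe sets were (0.422% higher and 0.672% lower), and 1 of 25 had an unadjusted p under 0.05 beside 7.47% of all.

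Socs1, which blocks the JAK kinases directly and is strongly induced by interferons, was read by 1 probe set. It read 5.99, 5.69 and 6.25 in the single-Stat5b arrays, against 6.48, 6.01 and 5.71 in the single-Stat5a arrays, around the filter level, so that it passed the filter through the 2-allele arrays. There it stood at 7.58, 7.84 and 7.64 in the arrays labelled Stat5a-/- and 7.46, 8.47 and 7.97 in Stat5ab+/null. The differences were -0.09 and -0.28, with 95% intervals of -0.66 to 0.49 and -0.86 to 0.30. The highest value, 8.47, came from Stat5ab+/null 2, which also had the highest mean of the 2-allele arrays for the 6 B and plasma cell markers (12.4) and the 5 measured T cell markers (9.24). Stat5a-/- 3, where these means were 12.0 and 7.94, read 7.64. Stat5a-/- 2, where they were 7.21 and 6.40, read 7.84. Socs1 was not called in either comparison with or without the B cell and muscle marker means in the fit. That fit therefore cannot show the part of those cells, which was not tested.

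Socs3, the inhibitor of receptors of the interleukin 6 and leptin family, was read by 3 probe sets. The arrays labelled Stat5a-/- stood at 8.08, 7.96 and 7.32 and Stat5ab+/null at 8.60, 8.69 and 7.82 for 1455899_x_at. Array 3 was the lowest of each genotype, and the groups overlapped through Stat5ab+/null 3 alone. The difference was -0.58 (95% interval -1.25 to 0.09, limma adjusted p = 1.00). The other probe sets gave -0.53 for 1456212_x_at and -0.27 for 1416576_at, and neither was called. For 1416576_at the levels were 9.11, 9.19 and 8.92 in the arrays labelled Stat5a-/- and 9.50, 9.52 and 9.00 in Stat5ab+/null. In the 1-allele set the 3 differences were -0.14, 0.04 and -0.09, in the same order of probe sets. Probe sets with the suffix _x_at may hybridize to other transcripts as well.

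Socs5, which restrains epidermal growth factor receptor signalling, gave -0.20 and 0.19 for 1423349_at and 1423350_at in single-Stat5b against single-Stat5a, and -0.19 and 0.08 in the arrays labelled Stat5a-/- against Stat5ab+/null. Each 95% interval held 0 and lay within 2-fold, so no direction can be read from either probe set. Socs6, which binds the receptor kinase KIT, was the gene whose 1-allele groups did not overlap: 1450129_a_at read 7.68, 7.66 and 7.73 in the single-Stat5b arrays, against 8.08, 7.74 and 8.10 in the single-Stat5a arrays. The difference was -0.28 (95% interval -0.64 to 0.08, limma adjusted p = 0.590). Another Socs6 probe set, 1452764_at, read 6.72, 8.13 and 6.85 in the single-Stat5b arrays, against 7.49, 7.53 and 7.51 in the single-Stat5a arrays. Array 2 of single-Stat5b lay above all single-Stat5a arrays and the other 2 lay below them, which gave -0.27 over all arrays (limma adjusted p = 0.824) and -0.72 without single-Stat5b 2 (limma adjusted p = 0.0226). Without that array 3.5% of all probe sets were called. The third probe set, 1435492_at, had the same high array, at 9.50, 10.53 and 9.56 in single-Stat5b and 9.74, 9.86 and 9.99 in single-Stat5a (difference 0.00).

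Socs7, a binder of insulin receptor substrates, gave the non-overlap of the 2-allele set. For 1455402_at the arrays labelled Stat5a-/- stood at 9.11, 9.11 and 8.95 and Stat5ab+/null at 9.42, 9.37 and 9.35. Every array of the first group was below every array of the other, by a mean of 0.33 (difference -0.33, 95% interval -0.74 to 0.09, limma adjusted p = 1.00). The other measured Socs7 probe sets gave 0.05 and -0.19, and the one under the filter, 1438492_at, lay above without overlap, at 5.51, 5.41 and 5.19 against 5.13, 5.18 and 5.13. In the 1-allele set 1455402_at read 12.40, 12.26 and 11.74 in the single-Stat5b arrays, against 12.03, 12.35 and 12.04 in the single-Stat5a arrays, a difference of -0.01. For 1434834_at single-Stat5b 2 read 8.26 beside 9.31 and 9.40 in arrays 1 and 3, and 9.51, 9.39 and 9.38 in single-Stat5a. The difference of -0.43 became -0.07 without that array.

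Bcl6, a transcriptional repressor that binds motifs close to those of STATs and is repressed by STAT5 in lymphoid cells, varied widely between 2-allele mice of 1 genotype. With 1421818_at it stood at 8.35, 9.03 and 7.90 in the arrays labelled Stat5a-/- and 8.50, 9.12 and 7.14 in Stat5ab+/null. The other probe set, 1450381_a_at, stood at 7.95, 8.45 and 7.06 in the arrays labelled Stat5a-/- and 8.30, 8.47 and 6.95 in Stat5ab+/null. Both probe sets were highest in Stat5ab+/null 2 and Stat5a-/- 2 and lowest in Stat5ab+/null 3 and Stat5a-/- 3. The differences were 0.18 (95% interval -0.75 to 1.10) and -0.09 (-1.07 to 0.90), the widest intervals of the list. In the 1-allele set 1421818_at read 11.63, 11.84 and 11.71 in the single-Stat5b arrays, against 10.75, 11.68 and 11.14 in the single-Stat5a arrays, where a single array of single-Stat5a reached the other group. That difference was 0.53 (-0.39 to 1.46, limma adjusted p = 0.737), and 1450381_a_at gave 0.10.

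Pim1, a serine/threonine kinase made on cytokine stimulation that favours survival, was read by 2 probe sets. In the 2-allele set 1435458_at stood at 8.74, 8.67 and 9.52 in the arrays labelled Stat5a-/- and 8.92, 9.36 and 9.92 in Stat5ab+/null, with array 3 the highest of each genotype (difference -0.43, 95% interval -1.16 to 0.31). For 1423006_at the levels were 8.06, 7.90 and 8.16 in the arrays labelled Stat5a-/- and 7.67, 7.77 and 8.27 in Stat5ab+/null, a difference of 0.14. In single-Stat5b against single-Stat5a the differences were 0.13 and -0.19. The 1-allele levels of 1423006_at, 5.05 to 5.68 in single-Stat5b and 5.42 to 5.68 in single-Stat5a, lay under the filter level, and no change is read from them.

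Id2, a helix-loop-helix protein without a DNA-binding region that is needed for alveolar growth in the mouse, was read by 3 probe sets. For 1422537_a_at single-Stat5b stood at 7.28, 8.45 and 8.90 and single-Stat5a at 8.05, 7.52 and 7.30. A single-Stat5b array was the lowest of the 6 and the other 2 were the highest, and the difference was 0.59 (95% interval -0.21 to 1.39, limma adjusted p = 0.628). With 1435176_a_at the difference was 0.13, and -0.29 without single-Stat5b 2, which read 10.96 beside 9.60 and 9.81 in arrays 1 and 3 and 9.91 to 10.09 in single-Stat5a. In the 2-allele set the same probe set stood at 10.15, 10.47 and 10.10 in the arrays labelled Stat5a-/- and 9.75, 10.45 and 9.14 in Stat5ab+/null, a difference of 0.46 (-0.31 to 1.22). All 3 Id2 probe sets were lowest in Stat5ab+/null 3, and the other 2 gave -0.09 and 0.15. On the 6 1-allele arrays 1453596_at lay under the filter level (4.96 to 5.77), and it passed through the 2-allele arrays.

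**Figure D2:**
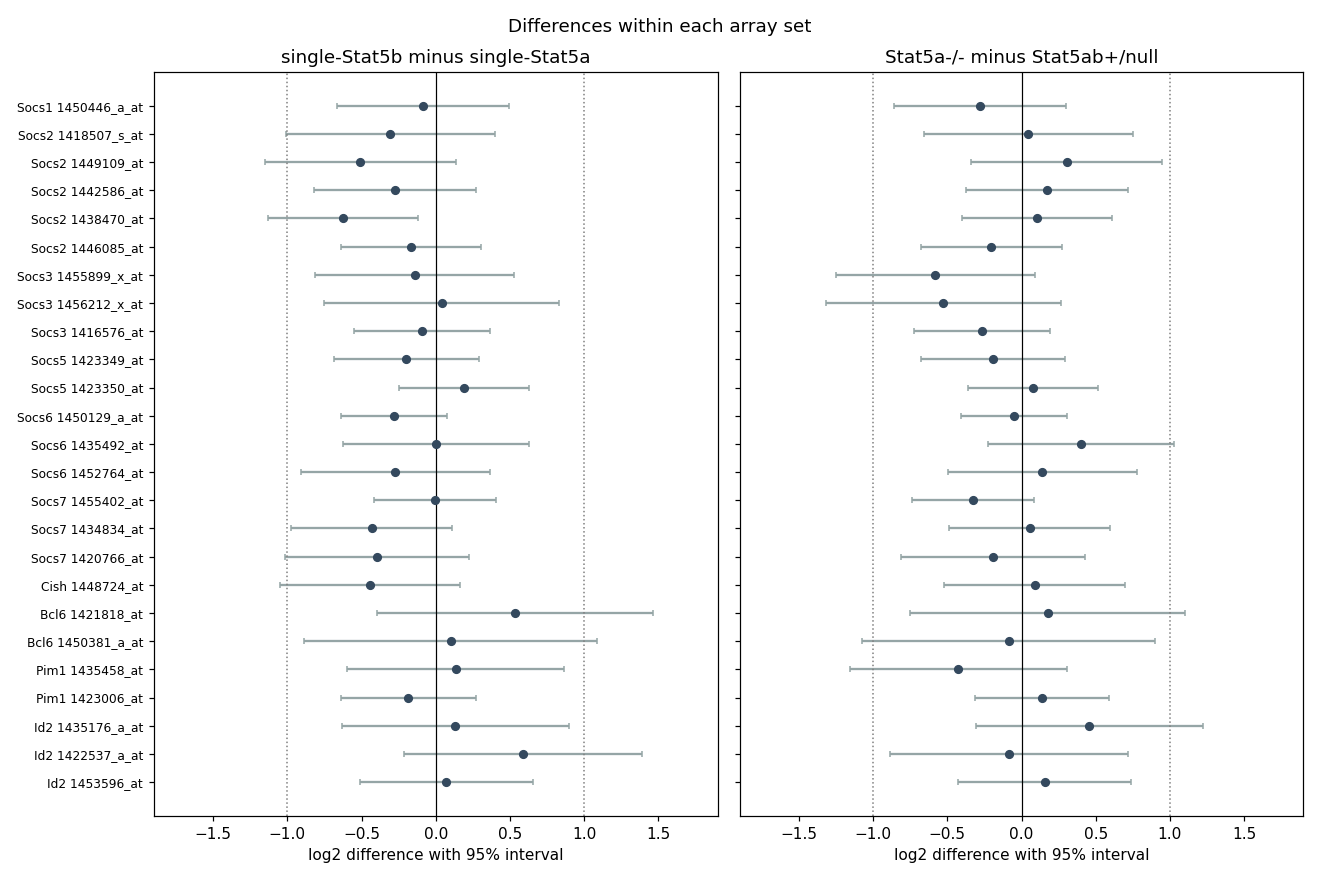
Log2 difference with its 95% interval for the 25 measured probe sets, single-Stat5b minus single-Stat5a on the left and Stat5a-/- minus Stat5ab+/null on the right; dotted lines mark 2-fold. Every interval but that of Socs2 1438470_at on the left holds 0.

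The intervals, which are not adjusted for the number of probe sets, lay wholly within 2-fold for 17 of 25 probe sets in single-Stat5b against single-Stat5a (68.0%, beside 78.3% of all probe sets) and for 18 of 25 in the arrays labelled Stat5a-/- against Stat5ab+/null (72.0%, beside 89.0%). An interval bounds a change only where the probe set reads signal. Without the 3 probe sets whose mean in the 1-allele set was under the filter level (Socs1, Pim1 1423006_at and Id2 1453596_at) the first count was 14 of 22. Without Socs6 1452764_at, whose 2-allele mean was under it, the second was 17 of 24. No share of all probe sets was taken under these narrower rules. Cish, 3 Socs2, both Bcl6, 1 Socs7 and 1 Id2 probe set reached past 2-fold in the first comparison. In the second it was 2 Socs3, both Bcl6 and 1 each of Socs6, Pim1 and Id2. The median SD of the 25 within a genotype was 0.43 in single-Stat5b, 0.25 in single-Stat5a, 0.17 in Stat5a-/- and 0.32 in Stat5ab+/null, beside 0.39, 0.22, 0.15 and 0.17 over all probe sets.

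**Figure D3:**
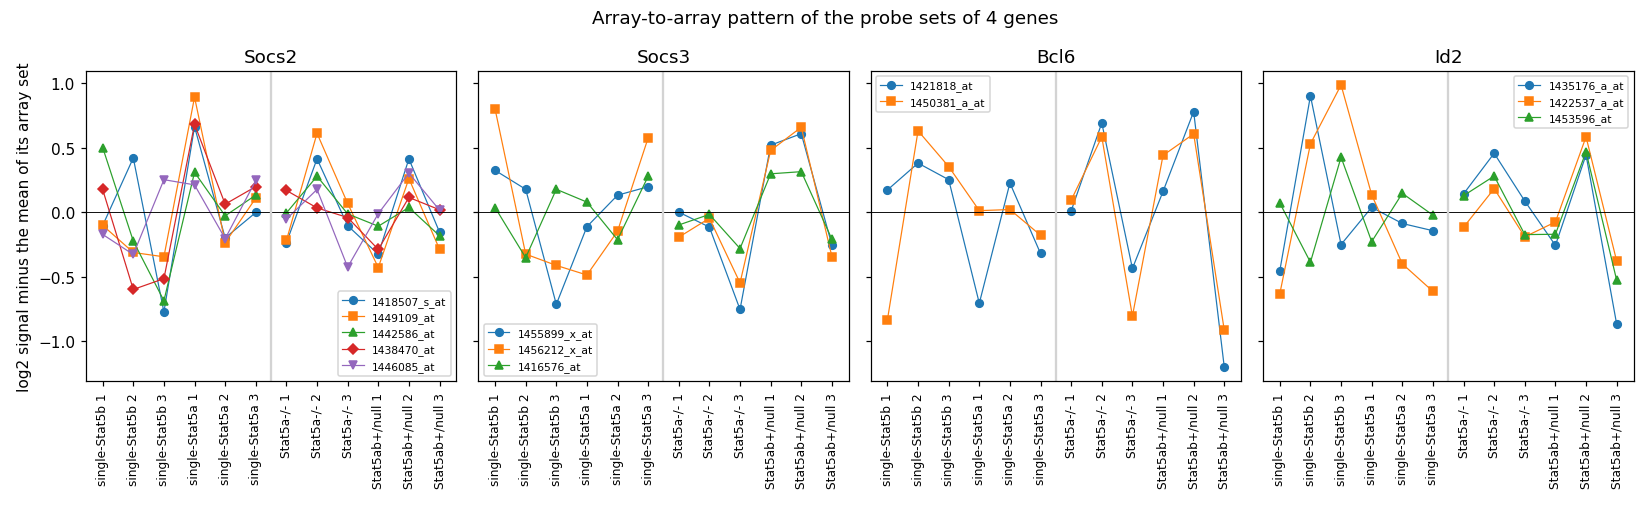
Log2 signal of each measured probe set of Socs2, Socs3, Bcl6 and Id2 on the 12 arrays, less the mean of its array set, with the 1-allele set left of the grey line and the 2-allele set right of it. In the 2-allele set the probe sets of Socs3, Bcl6 and Id2 are all below the set mean in Stat5ab+/null 3, though those of Socs3 are lowest in Stat5a-/- 3. In the 1-allele set those of Bcl6 and Id2 part on single-Stat5b arrays.

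The arrays of the 2-allele set thus differed among mice in a way that several probe sets of a gene shared. Of the 25, 9 were highest of the 6 arrays in Stat5ab+/null 2 (in Socs1, Socs2, Socs3, Bcl6 and Id2), and 6 in Stat5a-/- 2. The lowest values were spread more evenly, with 7 in Stat5a-/- 3, 1 in Stat5a-/- 2, and 6, 5 and 6 in Stat5ab+/null 1, 2 and 3. The mean of the B and plasma cell markers was highest in Stat5ab+/null 2 (12.4). It was 12.0 in Stat5a-/- 3, which was highest for 1 of the 25, and 7.21 in Stat5a-/- 2, which was highest for 6. None of the 25 was called in either comparison with or without the B cell and muscle covariates, so the part of those cells was not tested. In the 1-allele set, 9 were lowest and 6 highest in single-Stat5b 2. Such counts were not made over all probe sets, and several of the 25 belong to the same gene. Nothing particular to the members is therefore read from them.

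Across the array sets the probe sets of a gene often disagreed. In 1-allele minus 2-allele arrays 73.6% of all probe sets were called (38.1% higher and 35.5% lower), and so were 19 of the 25 (8 higher and 11 lower). The sets did not overlap for 7 higher and 8 lower of the 25, beside 53.9% of all probe sets (28.1% higher and 25.8% lower). For Socs3, 1455899_x_at averaged 10.44 in 1-allele arrays and 8.08 in 2-allele arrays (difference 2.37), while 1416576_at averaged 7.56 and 9.21 (difference -1.65). For Socs6, 1435492_at gave 2.42 and 1452764_at 1.39 where 1450129_a_at gave -1.72. Socs5 gave 0.72 and -0.68. Pim1 gave 0.61 and -2.49, the second from 1423006_at, which lay under the filter level on every 1-allele array, so its size is not a measured fold.

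Genes with probe sets called in both directions were 4 of the 8 members with several measured probe sets, beside 39.2% of all 6836 such genes. Pim1 is among the 4 only through the probe set under the filter level. Of the 21 member probe sets at or above that level in both sets, 15 were called (7 higher and 8 lower), and Socs3, Socs5 and Socs6 had calls in both directions. The share of all probe sets under that stricter rule was not taken, so nothing particular to the members is read from the 15. The sets did not overlap in both directions for Socs3 and Socs6, 2 of 8, beside 24.9%. Id2 gave -2.83, -1.87 and 0.05, Bcl6 3.12 and -0.35, Socs7 2.92, -0.04 and -0.36, and Socs2 between -1.66 and 0.28. Cish and Socs1, each with 1 probe set, gave -0.79 and -1.81. The values of -1.87 for Id2, -1.81 for Socs1 and, in Socs6, 1.39 are likewise against a set whose mean was under the filter level. No direction across the sets is therefore given for any of the 10 genes, and the part of the actin 3' excess, which moves with the same split, was not tested there.

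**Figure D4:**
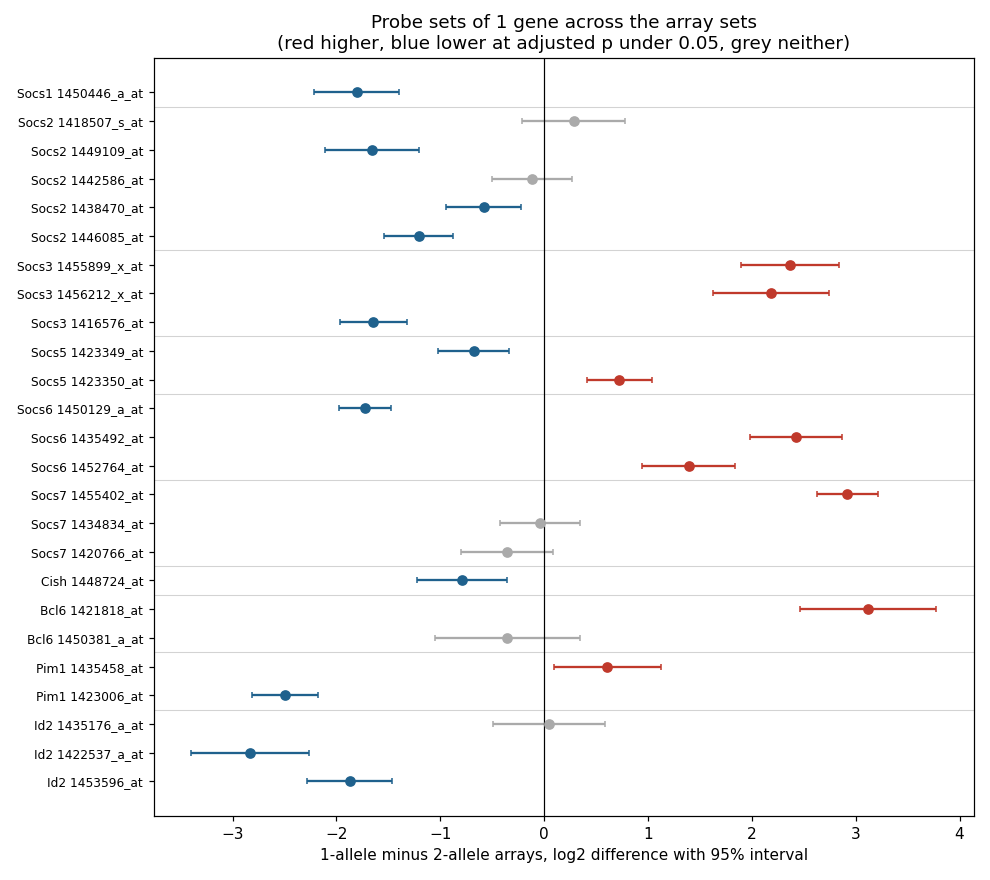
Log2 difference of 1-allele minus 2-allele arrays with its 95% interval for the 25 measured probe sets, ordered by gene; red is higher and blue lower at an adjusted p under 0.05, grey neither. Socs3, Socs5, Socs6 and Pim1 have called probe sets on both sides of 0.

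The rest of the circuit was read from 65 listed genes in 6 lists, of which 56 had a probe set past the filter (the highest-mean one was used). None of the 56 was called by limma in either comparison. An unadjusted p under 0.05 was found for 6 in single-Stat5b against single-Stat5a (10.7%, beside 11.8% of all probe sets) and 2 in the arrays labelled Stat5a-/- against Stat5ab+/null (3.57%, beside 2.84%). The 6 were Il7r, Ifngr1, Il15, Igf1, Ccnd2 and Bcl6b, and the 2 were Ptpn1 and Wnt4. Groups did not overlap for 6 (10.7%) and 15 (26.8%) of the 56, beside 11.5% and 17.5% of all probe sets. The 56 are the highest-mean probe set of each gene and the shares beside them cover every probe set past the filter. These units are unlike, so no excess is read from the shares.

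Cytokine receptors (12 measured) had a median of -0.23 in single-Stat5b against single-Stat5a. Il7r, the interleukin 7 receptor of lymphoid cells, averaged 10.07 ± 0.75 in single-Stat5b, without overlap, against 8.44 ± 0.52 in single-Stat5a (SD over 3 arrays), a difference of 1.63 with an SE of 0.70 (limma adjusted p = 0.369). Epor, Il4ra and Ifngr1 differed by -0.74, -0.61 and -0.55. In the arrays labelled Stat5a-/- against Stat5ab+/null the list's median was -0.09, with Il7r at -0.46, Csf2rb at -0.36, Il4ra at -0.24 and Lifr at 0.23.

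JAK kinases and the other STATs (8 measured) had a median of -0.16 in the 1-allele set, where Stat4 differed by -0.55, Jak1 by -0.36, Jak2, the kinase of the prolactin receptor, by 0.30 and Stat6 by -0.22. In the 2-allele set all 8 were below 0, at a median of -0.30 beside -0.05 over all probe sets, of which 38.6% were above 0. Stat4 differed by -0.60, Jak3 by -0.43, Tyk2 by -0.37 and Jak1 by -0.33 there. Stat4, which is expressed in lymphocytes, read 5.39, 5.65 and 7.59 in the arrays labelled Stat5a-/- and 5.71, 8.53 and 6.19 in Stat5ab+/null, high on the arrays where the B and plasma cell markers averaged 12.0 and 12.4. Cytokine ligands (7 measured) were likewise all below 0 in the 2-allele set, at a median of -0.20, with Il7 at -0.36, Lif at -0.31, Il15 at -0.24 and Tslp at -0.20. So were all measured markers of luminal epithelium (10), B and plasma cells (6), T cells (5) and macrophages (6), and the part of those cells in both lists was not tested. In the 1-allele set Lep differed by -0.99, Il15, a lymphocyte growth factor, by -0.68 (SE 0.19, limma adjusted p = 0.0840), Il7 by -0.21 and Gh by 0.18.

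Other inhibitors (11 measured) had medians of 0.03 and -0.08. Ptpn1, a tyrosine phosphatase that acts on JAK2, averaged 10.50 ± 0.13 in the arrays labelled Stat5a-/- and 11.16 ± 0.08 in Stat5ab+/null, without overlap (difference -0.66, SE 0.22, limma adjusted p = 1.00). Sh2b3 differed by -0.33, also without overlap, and Cbl by 0.34 and Ptpn6 by -0.33, with overlap. In single-Stat5b against single-Stat5a, Ptpn2 differed by 0.35, Ptpn11 by -0.25, Pias3 by 0.25 and Pias2 by 0.17. Paralogs of the members (6 measured) gave -0.56 for Bcl6b, 0.40 for Id4, -0.25 for Id3 and -0.19 for Pim2 in the 1-allele set, and -0.56 for Id3, 0.52 for Id4, -0.41 for Pim3 and -0.25 for Id1 in the 2-allele set.

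Further Stat5 targets (12 measured) had medians of -0.06 and -0.11. Ccnd2, the cyclin D2 gene, averaged 11.42 ± 0.78 in single-Stat5b against 12.57 ± 0.19 in single-Stat5a (SD over 3 arrays) without overlap, a difference of -1.15 (SE 0.30, limma adjusted p = 0.0627). Tnfsf11, the RANKL gene, differed by 0.75, Igf1 by -0.63 and Wnt4 by 0.54. In the arrays labelled Stat5a-/- against Stat5ab+/null Wnt4 differed by -0.83 and Elf5 by 0.34, each without overlap. Cdkn1a differed by -0.64 and Tnfsf11 by 0.41 there, with overlap.

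Likeness was measured for 3 members, those with the largest difference of genotype means within a set when each gene is taken by its highest-mean probe set, which leaves out larger differences at other Socs2 probe sets. It was taken as the root mean square difference from every other gene over the 12 arrays, each set centred on its mean. Socs3 was closest to Scg3 (0.18), Mmrn2 (0.19) and Stx11 (0.21), beside a root mean square of 0.41 for Socs3 itself. Id2 was closest to Pnrc2 (0.21), Gpm6b (0.24) and Dse (0.25), beside 0.44. Bcl6 was closest to Tmem100, Clec4g and Slc2a1, all at 0.34, beside 0.55.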

How the data were processed

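The authors deposited 1 log2 signal for each probe set and array, measured on biotin-labelled cRNA from total RNA. RMA and Partek are named, per the submitters' processing notes; versions and settings are not stated by any source at hand, and medians over arrays differ (7.28 to 7.50). Probe sets were named through the platform annotation: 34945 had 1 gene, 932 several and 9160 none, beside 64 controls. Probe sets under the 30th percentile of the mean were left out, and limma 3.58.1 in R 4.3.3 fitted 1 mean per genotype with a shared spread over the 12 arrays, two-sided, with Benjamini-Hochberg adjustment over 31526 probe sets and a call at an adjusted p under 0.05. Intervals are 95%. The fit was tested on simulated data. Replicates follow the order of the records and pair no mice; the labels do not say how independent the mice are beyond being separate, and p-values measure the spread between these samples. The smallest p of an exact permutation test of 3 and 3 arrays is 0.1.

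Members and lists were chosen with earlier results of these data known. All probe sets of the members are named; of each pathway list up to 4 genes with the largest differences in each comparison; and 3 nearest genes for 3 members. Marker lists covered luminal and basal epithelium, B and plasma cells, T cells, macrophages, white adipocytes, skeletal muscle and endothelium. Motifs were found with Python 3.11.15. Alternatives were other filters, normalizations, variance models, units, covariates and arrays left out.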

Additional observations from a re-analysis of the deposited data

How the results depend on the processing

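No member was called under any of the alternatives, except 1 lower probe set, Socs6 1452764_at, in single-Stat5b against single-Stat5a without single-Stat5b 2 (difference -0.72, limma adjusted p = 0.0226). Leaving out 1 array at a time thus gave 0 to 1 members called lower there and 0 in every other comparison and direction. In the fit with that 1 call, 1103 of all 31526 probe sets (3.5%) were called, so nothing particular to the members is read from it. Over 575, 577 and 551 refits of single probe sets in single-Stat5b against single-Stat5a, Stat5a-/- against Stat5ab+/null and the interaction, the sign was other than reported in 47, 25 and 38, none of them called. The lowest adjusted p was 0.168 (Socs7 1455402_at, array weights) for Stat5a-/- against Stat5ab+/null and 0.0644 (Socs6 1452764_at, without single-Stat5b 2) for the interaction. Calls over all probe sets also moved, in part because some settings test fewer: 912 for single-Stat5b against single-Stat5a became 504 in a fit of these genotypes alone, 533 with the B cell and muscle covariates, 534 with the 50th percentile filter (2.37% of 22519 tested, beside 2.89% of 31526), 310 with 1 probe set per gene (2.18% of 14198) and 2017 without single-Stat5b 3. The 3 calls of Stat5a-/- against Stat5ab+/null became 430 with array weights, 5 in a fit of these genotypes alone, 1 with 1 probe set per gene, 0 with the covariates and 0 to 6 without single arrays. The interaction's 345 became 1018 with array weights, 202 with the 50th percentile filter, 186 with the covariates, 110 with 1 probe set per gene and 521 without single-Stat5b 2. With 4 arrays left out together, a choice added after the data were seen, the counts were 725, 0 and 217, with 0 members called. No paired analysis was possible because the labels give the genotypes no shared replicate numbers. Precision is limited by having 3 arrays of each genotype.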

Other observations

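No gene of the marker lists was called in either comparison. In single-Stat5b against single-Stat5a, luminal epithelium had 9 of 10 measured genes above 0, B and plasma cells 5 of 6, macrophages 3 of 6, T cells 2 of 5, basal epithelium, white adipocytes and endothelium 1 of 6 each and skeletal muscle 0 of 8. The array means of the white adipocyte list (12.47 to 13.01 in single-Stat5b and 13.05 to 13.39 in single-Stat5a) and of the endothelium list (9.14 to 9.44 and 9.68 to 9.93) did not overlap. In Stat5a-/- against Stat5ab+/null, skeletal muscle had 8 of 8 above 0, basal epithelium 5 of 6, white adipocytes 2 of 6, endothelium 1 of 6, and luminal epithelium (10), B and plasma cells (6), T cells (5) and macrophages (6) none. For the probe sets under the filter, a fit with no filter gave 0.12 and 0.13 for Socs2 1441476_at and -0.07 and 0.23 for Socs7 1438492_at in these comparisons, none of them called.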
